A study of Mus musculus with 3 samples.

Results

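Barcodes of the mouse lacrimal gland whose RNA was dominated by 3 secretory transcripts are described here. They were chosen by their own counts. Each had at least 500 UMIs (unique molecular identifiers, each standing for 1 counted RNA molecule), at least 300 genes and at most 5% of UMIs from mitochondrial (mt-) genes. In each of them Mucl2, Scgb2b2 and Scgb1b2 together made at least 30% of the UMIs and Malat1 made less than 1.5%. Of 29220 barcodes that passed the limits on UMIs, genes and mt- share, 3133 (10.7%) met the whole rule, and they are called secretory-dominated. The rest of the same library are called the other barcodes.

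The study profiled nuclei of lacrimal glands with droplet sequencing (10x Genomics 3' v3) in 3 groups. One group was mice in which scopolamine (SCOP) combined with dry stress (DS) had brought on dry eye and which also received tamsulosin. Another was mice with SCOP and DS dry eye and no such treatment, and the last was normal control mice. The libraries are called tamsulosin, scopolamine and control. Each group is 1 library, the labels state neither strain, age, dose, time nor how many animals each library holds, and so no value has a replicate and no test between groups was possible. Tamsulosin blocks alpha-1 adrenergic receptors and scopolamine blocks muscarinic receptors. The labels' protocol names a sort of RFP+ nuclei in a passage written for more than one assay, and whether these libraries were sorted was not settled. Deposited totals were 12322 barcodes for tamsulosin, 10024 for scopolamine and 7253 for control, with lowest depths of 1534, 967 and 1492 UMIs in that order. The library lists shared 35 barcode sequences between tamsulosin and scopolamine, 30 between tamsulosin and control and 22 between scopolamine and control, and no shared sequence was secretory-dominated in both libraries of a pair.

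Acinar cells of the lacrimal gland make the proteins of the tear film and export them through the endoplasmic reticulum (ER) and secretory granules. Secretoglobins are small secreted proteins, and in mice the Scgb1b and Scgb2b genes encode the subunits of androgen-binding protein, which is released in tears and saliva. Malat1 is a long noncoding RNA that stays in the nucleus. In preparations of nuclei, long genes yield many UMIs from unspliced transcripts, whereas the messages of ribosomal proteins are short, spliced and mostly cytoplasmic. Droplets can also hold RNA that floated free in the suspension.

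The coding sequences of the 3 transcripts that define the barcodes are shown because the counts of a gene family depend on how different its members are. They were read from GENCODE vM21 on GRCm38 (mm10). Mucl2 (ENSMUSG00000036925, chr15:103895855-103899312, minus strand, 4 exons) encodes a mucin-like secreted protein. Of its 139 codons 33 encode serine or threonine, and capitals mark those in the first 300 bases, which are printed. Its whole coding sequence was 59.7% identical to that of Mucl1. In Scgb2b2 (ENSMUSG00000036521, transcript Scgb2b2-201 at chr7:31302761-31304977, plus strand, 3 exons) and Scgb1b2 (ENSMUSG00000062556, chr7:31290519-31291821, minus strand, 3 exons), capitals mark bases of the first 300 (all 282 for Scgb1b2) that do not match the nearest annotated coding paralog in a global alignment. That paralog was Scgb2b3 for Scgb2b2, with 74.5% identity among 13 paralogs compared, and Scgb1b3 for Scgb1b2, with 86.9% among 14.
Mucl2: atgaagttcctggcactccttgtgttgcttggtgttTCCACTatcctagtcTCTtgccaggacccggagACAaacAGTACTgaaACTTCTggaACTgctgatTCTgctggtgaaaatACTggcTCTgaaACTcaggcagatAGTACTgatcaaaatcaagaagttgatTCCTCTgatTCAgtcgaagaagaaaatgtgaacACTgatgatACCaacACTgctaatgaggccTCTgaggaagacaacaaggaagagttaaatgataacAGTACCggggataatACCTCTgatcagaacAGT
Scgb2b2: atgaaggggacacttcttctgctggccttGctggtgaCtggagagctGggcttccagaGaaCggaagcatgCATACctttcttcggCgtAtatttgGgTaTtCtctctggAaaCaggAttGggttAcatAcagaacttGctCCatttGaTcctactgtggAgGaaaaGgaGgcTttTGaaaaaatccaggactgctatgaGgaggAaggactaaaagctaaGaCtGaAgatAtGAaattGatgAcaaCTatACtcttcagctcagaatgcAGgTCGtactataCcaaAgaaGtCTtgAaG
Scgb1b2: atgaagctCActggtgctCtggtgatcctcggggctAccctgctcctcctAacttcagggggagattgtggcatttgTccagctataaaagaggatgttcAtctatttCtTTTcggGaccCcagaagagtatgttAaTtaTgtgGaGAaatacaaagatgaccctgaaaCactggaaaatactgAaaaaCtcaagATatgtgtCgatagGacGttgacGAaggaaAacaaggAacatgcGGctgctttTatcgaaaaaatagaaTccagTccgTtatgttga
The annotated gene Scgb2b2 (chr7:31290508-31304977) spans the opposite strand of Scgb1b2, and how reads in that overlap were assigned is not given in the sources used here. Other secretoglobins named below are closer to each other. The coding sequence of Scgb1b7 matched that of Scgb1b29 at 282 of 282 positions, Scgb1b20 matched Scgb1b29 at 98.9%, and Scgb2b20 matched Scgb2b7 at 98.2%. Counts of single members of those pairs are therefore uncertain.

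Secretory-dominated barcodes were unevenly spread over the libraries. They were 2559 of 12020 barcodes in the tamsulosin library (21.3%, 95% Clopper-Pearson interval 20.6 to 22.03), 550 of 10006 in the scopolamine library (5.50%, 5.06 to 5.96) and 24 of 7194 in the control library (0.334%, 0.214 to 0.496). These intervals, like all below, cover counting error only. The tamsulosin library supplied 81.7% of all secretory-dominated barcodes, and the control library so few that its values are given without weight on single genes. Within their libraries they held 20.1% of all UMIs in tamsulosin, 13.01% in scopolamine and 0.486% in control, and 42.9%, 39.1% and 4.91% of the UMIs of the 3 secretory genes in the same order.

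The level of the 3 transcripts in the remaining barcodes also differed between libraries. The median secretory share was 36.1% in secretory-dominated and 17.6% in other barcodes of tamsulosin. It was 49.9% and 16.6% in scopolamine, and 35.3% and 4.38% in control. The control library was thus the one whose other barcodes held least of these transcripts, and the 30% limit lay at a different distance from the bulk in each library. The median Malat1 share was 0.894% in secretory-dominated and 2.73% in other barcodes of tamsulosin, 0.428% and 3.17% in scopolamine, and 0.657% and 2.97% in control. Both measures were used to choose the barcodes, so these values describe the choice.

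**Figure D1:**
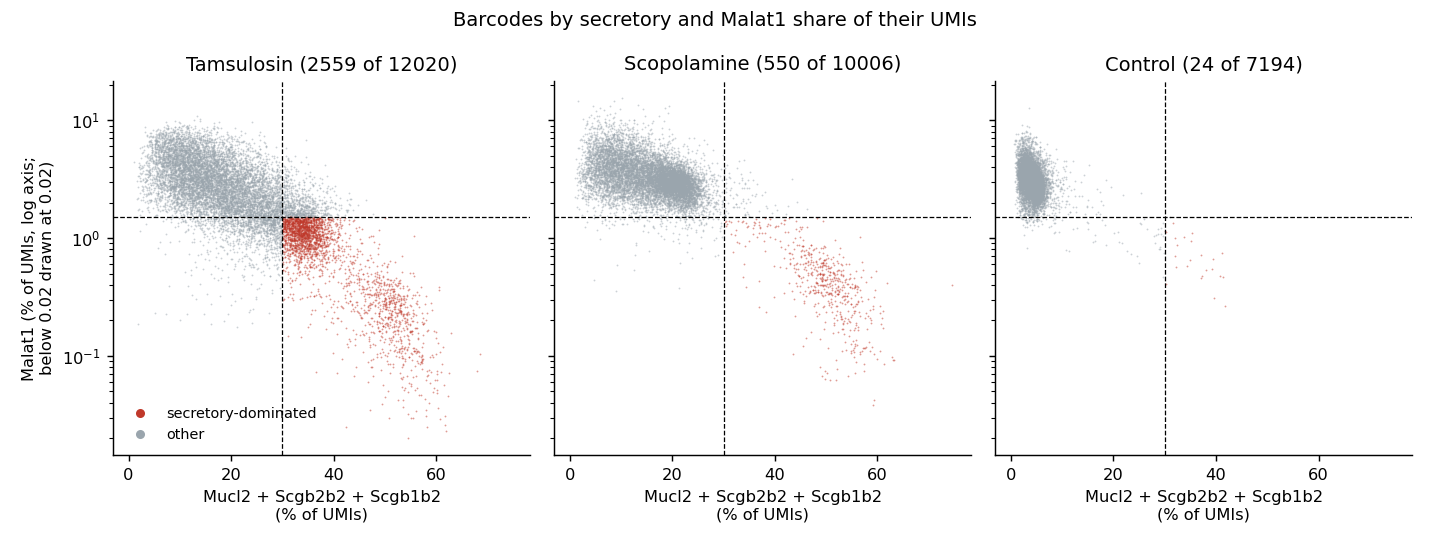
Each point is 1 barcode, placed by the summed share of Mucl2, Scgb2b2 and Scgb1b2 (x axis, % of UMIs) and the share of Malat1 (y axis, % of UMIs, log axis), in the tamsulosin, scopolamine and control libraries from left to right, with secretory-dominated barcodes in red and other barcodes in grey. Dashed lines are the 30% and 1.5% limits, and Malat1 shares under 0.02% are drawn at 0.02%. In tamsulosin 160 red points lie between 30% and 31%, and in scopolamine 500 of the 550 lie at 40% or more.

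The secretory-dominated barcodes fell into an upper and a lower band of secretory share. Of the tamsulosin barcodes 868 (33.9%) were at 40% or more, against 500 (90.9%) of the scopolamine barcodes and 4 of the 24 control barcodes. The remaining 1691, 50 and 20 barcodes, in that order, lay between 30 and 40%. In 5-point bins of tamsulosin, 1060 secretory-dominated barcodes lay at 30 to 35%, 179 at 40 to 45% and 326 at 50 to 55%. In scopolamine 27 lay at 35 to 40% and 177 at 50 to 55%, and no control barcode reached 45%. The fullest bin was then sought over all barcodes that passed the limits on UMIs, genes and mt- share. It was at 10 to 15% in tamsulosin (2087 barcodes) and at 15 to 20% in scopolamine (2525). Tamsulosin had a smaller maximum at 30 to 35%, with 1557 barcodes after 1419 at 25 to 30%. The bin at 50 to 55% was a further and smaller maximum in both libraries. The split at 40% was placed after these counts had been seen.

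**Figure D2:**
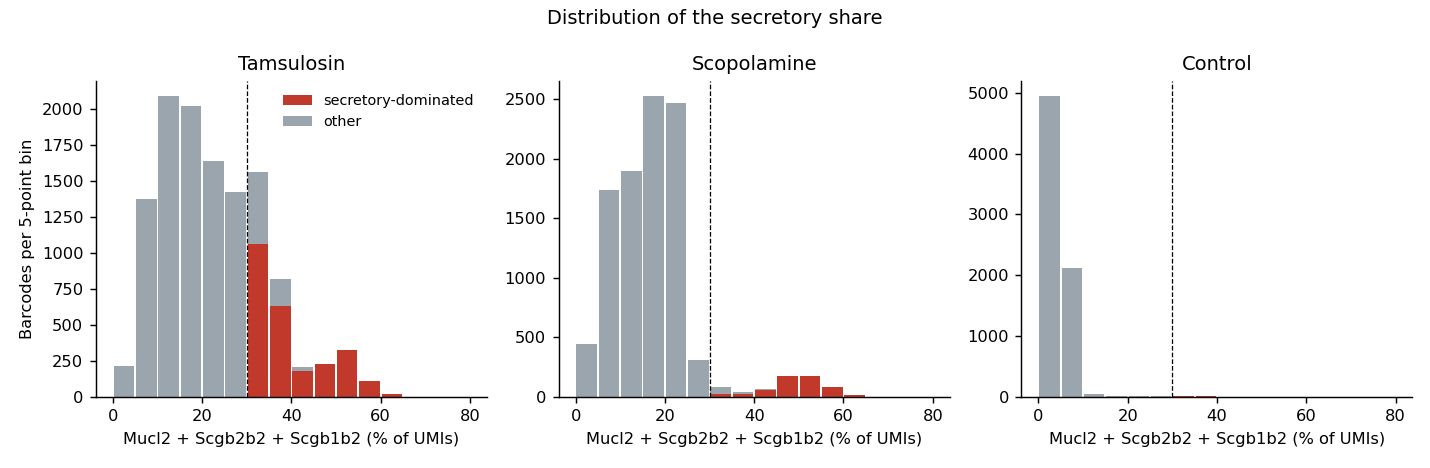
Bars count barcodes per 5-point bin of the summed share of Mucl2, Scgb2b2 and Scgb1b2 (x axis, % of UMIs) in the tamsulosin, scopolamine and control libraries from left to right, with secretory-dominated barcodes in red below and other barcodes in grey above. The dashed line is the 30% limit, and the y axes differ between panels. A separate maximum near 50% stands in tamsulosin (326 barcodes at 50 to 55%) and scopolamine (177 barcodes) and is not seen in control.

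The bands differed in depth and in Malat1. In tamsulosin the upper band had a median of 5954 UMIs, 495.5 genes and 0.260% Malat1, and the lower band 1840 UMIs, 543 genes and 1.09% Malat1. The lower band thus sat close to the lowest depth deposited, 1534 UMIs. In scopolamine the upper band had a median of 6111.5 UMIs, 572.5 genes and 0.401% Malat1, and the 50 barcodes of the lower band 5074.5 UMIs, 1108 genes and 1.21% Malat1. Secretory-dominated barcodes above 10000 UMIs held less Malat1 than those at 3000 to 5000 UMIs in each library. The medians were 0.108% (198 barcodes) and 0.436% (368) in tamsulosin, 0.170% (111) and 0.590% (179) in scopolamine, and 0.360% (4) and 0.867% (11) in control. The median secretory share above 10000 UMIs was 52.0% in tamsulosin, 53.0% in scopolamine and 35.9% in control.

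Most genes took a smaller share in the upper band than in the lower. In tamsulosin 3085 of 3848 genes (80.2%) were lower by 2-fold or more and 0 (0%) higher, and in scopolamine 2548 of 3816 (66.8%) were lower and 13 (0.341%) higher. The other secretory proteins described below held 52.5% of the remaining UMIs in the upper and 30.6% in the lower band of tamsulosin, and 54.4% and 35.7% in scopolamine. Messages of ribosomal proteins held 1.34% and 2.43% in tamsulosin, a ratio of 0.553 (0.546 to 0.559), and 1.002% and 0.945% in scopolamine, a ratio of 1.06 (1.01 to 1.11). Nuclear-retained RNAs held 0.108% and 0.409% in tamsulosin, and 0.147% and 0.471% in scopolamine. Remaining UMIs are those outside the 3 rule genes, Malat1 and mt- genes.

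The values next to the limits are given for both sides. In tamsulosin 160 secretory-dominated barcodes at 30 to 31% had a median of 1870 UMIs, 608 genes and 1.19% Malat1, and 108 barcodes just under the limit, at 29 to 30%, had 1938 UMIs, 638.5 genes and 1.13% Malat1. At the Malat1 limit, 191 secretory-dominated barcodes at 1.4 to 1.5% had a median secretory share of 34.0%, and 137 barcodes at 1.5 to 1.6% had 33.4%. In scopolamine few barcodes lay next to a limit, with 4 at 30 to 31% and 5 at 29 to 30%. The mt- limit had removed 42 further barcodes that met the secretory and Malat1 limits in tamsulosin, 0 in scopolamine and 10 in control, and the gene minimum 21, 1 and 0.

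Total depth and mitochondrial share moved with the choice in different ways. The median depth was 2316 UMIs in secretory-dominated and 3522 in other barcodes of tamsulosin, 6041 and 1605 in scopolamine, and 5083 and 2316.5 in control. Secretory-dominated barcodes were therefore the shallower group in tamsulosin and the deeper group in scopolamine and control. The median mt- share was 1.14% and 0.639% in tamsulosin, 0.764% and 0.250% in scopolamine, and 3.52% and 0.116% in control, higher in the secretory-dominated group each time. Mitochondrial RNA is made outside the nucleus, and the mt- share was limited by the rule to 5%.

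Few genes were detected in the secretory-dominated barcodes. The median was 531 genes in secretory-dominated and 1468 in other barcodes of tamsulosin, 589 and 818 in scopolamine, and 964 and 1310 in control. To compare at equal depth, each barcode was thinned to 500 remaining UMIs, which left out none. Then 244 and 368 genes were detected in tamsulosin, 120 and 365 in scopolamine, and 212.5 and 406 in control. The gap was wide in the upper band, with 109 genes in tamsulosin and 117 in scopolamine, and narrower in the lower band, with 257 and 260. Outside the 50 most abundant remaining genes, at 300 UMIs each, the numbers were 270 and 278 genes in tamsulosin, 268 and 278 in scopolamine, and 268 and 280 in control, a ratio of 0.971, 0.964 and 0.957. That setting was added after the data were seen.

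The remaining UMIs of secretory-dominated barcodes were again largely secretory. A list of 28 other tear and saliva proteins held 43.0% (95% Poisson interval 42.9 to 43.0) of the remaining UMIs in secretory-dominated and 11.4% in other barcodes of tamsulosin. The shares were 52.7% (52.6 to 52.8) and 8.50% in scopolamine, and 34.4% (34.1 to 34.8) and 3.19% in control. Obp1a, a lipocalin that binds odorants and pheromones, had 281735 CPM (UMIs per 1000000 remaining UMIs) in secretory-dominated and 70291 CPM in other barcodes of tamsulosin, a ratio of 4.01 (4.00 to 4.02, conditional binomial interval). It had 386713 and 56782 CPM in scopolamine, a ratio of 6.81 (6.79 to 6.83), and 249706 and 16500 CPM in control, a ratio of 15.1. The same order of groups held for its relative Obp1b, with 37566 and 8180 CPM in tamsulosin, 32353 and 4895 CPM in scopolamine, and 32540 and 3740 CPM in control.

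Most genes had a lower share of the remaining UMIs in secretory-dominated barcodes. Of 5383 genes with a mean of at least 20 CPM in tamsulosin, 39 (0.725%) had a share in secretory-dominated barcodes that was higher by 2-fold or more, and 4057 (75.4%) one that was lower by as much, with 5 CPM added to both sides. In scopolamine 72 of 5046 genes (1.43%) were higher and 4483 (88.8%) lower, and in control 219 of 5345 (4.1%) higher and 3350 (62.7%) lower. The median gene had a log2 ratio of -1.35 in tamsulosin, -1.90 in scopolamine and -1.26 in control. Values below are therefore also given relative to the median gene of the library. On that scale 556 genes (10.3%) lay 2-fold or more above it and 65 (1.21%) below it in tamsulosin, 509 (10.1%) above and 9 (0.178%) below in scopolamine, and 885 (16.6%) above and 672 (12.6%) below in control. Without the 50 most abundant genes the counts were 661 higher and 195 lower in tamsulosin and 665 higher and 285 lower in scopolamine, so they depend on the most abundant transcripts. These counts describe barcodes chosen by their transcripts, and nothing is called particular to a list from them.

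The genes with the highest ratios, by the smaller of the tamsulosin and scopolamine values, were Scgb1b20, Scgb1b7, Scgb2b20, Obp1b, Scgb2a2, Scgb2b24, Obp1a, Pip, Lcn11, Hp, Scgb2b7 and Bglap3. Of the 12, 6 were secretoglobins and 3 (Obp1a, Obp1b and Lcn11) lipocalins. Scgb1b20 had 7421 and 1274 CPM in tamsulosin, 2088 and 355 CPM in scopolamine, and 1229 and 59.0 CPM in control. Pip, a small secreted protein of tears and saliva, had 20101 and 5680 CPM in tamsulosin, 18612 and 3630 CPM in scopolamine, and 6774 and 1189 CPM in control. Hp, the plasma haemoglobin-binding protein haptoglobin, had 592 and 197 CPM in tamsulosin, 1012 and 253 CPM in scopolamine, and 1776 and 206 CPM in control. The choice of the 12 genes fixed their direction in tamsulosin and scopolamine. In control, which was not used to choose them, secretory-dominated barcodes were above the others for each as well. Each spanned less than 10 kb of genome, and the share of all genes that short is not given here.

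Some secreted proteins had lower shares. Of the 28 listed genes 22 had a mean of at least 20 CPM in tamsulosin and 21 in scopolamine, and 12 and 14 of them were at least 2-fold higher, beside 0.725% and 1.43% of all genes. At least 2-fold lower were 0 and 1, beside 75.4% and 88.8% of all genes. Ltf, which encodes the iron-binding tear protein lactoferrin, had 3723 CPM in secretory-dominated and 5132 CPM in other barcodes of tamsulosin. It had 360 and 578 CPM in scopolamine, and 62.0 (from 6 UMIs) and 193 CPM in control. Dmbt1, a large secreted mucosal defence protein, had 580 and 1006 CPM in tamsulosin and 48.9 and 173 CPM in scopolamine. Relative to the median gene Ltf was at 0.89 (log2) in tamsulosin, 1.22 in scopolamine and -0.30 in control. Esp6, of the exocrine gland-secreted peptide family, had 9430 and 3620 CPM in tamsulosin, 9751 and 3130 CPM in scopolamine, and 12805 and 2308 CPM in control.

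Abundant gene models without an established symbol were higher as well. Gm5938, for which RefSeq lists the synonym OBP6, had 110677 and 30149 CPM in tamsulosin, 141224 and 24519 CPM in scopolamine, and 139373 and 17695 CPM in control. Gm1553, listed with the synonym Lcrn, had 64445 and 14630 CPM in tamsulosin, 50651 and 8381 CPM in scopolamine, and 24733 and 4072 CPM in control. Both were chosen after their values were seen, as the most abundant unnamed models.

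Fth1 and Tpt1, the other listed markers of these barcodes, took a larger share of the remaining UMIs in them. Fth1, the heavy chain of the iron store ferritin, had 152 CPM in secretory-dominated and 102 CPM in other barcodes of tamsulosin (ratio 1.501, 1.39 to 1.61), 43.5 and 28.6 CPM in scopolamine (1.52, 1.22 to 1.88), and 6 UMIs in the control barcodes. Tpt1, which encodes the translationally controlled tumour protein, had 574 and 296 CPM in tamsulosin (1.94, 1.87 to 2.02), 274 and 131 CPM in scopolamine (2.10, 1.92 to 2.29), and 485 and 68.6 CPM in control (7.08, 5.18 to 9.44). Over all UMIs, a denominator added after the data were seen, the ratio for Tpt1 was 1.27 in tamsulosin, 1.20 in scopolamine and 4.55 in control. The ratio for Fth1 was then 0.983 (0.914 to 1.06) in tamsulosin and 0.871 (0.696 to 1.08) in scopolamine, so its direction in these libraries depends on the denominator. As both were named as markers from these data, the values are a description.

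Messages of ribosomal proteins took a larger share. Together 84 such genes held 1.81% (1.80 to 1.82) of remaining UMIs in secretory-dominated and 0.997% in other barcodes of tamsulosin, 0.997% (0.984 to 1.01) and 0.523% in scopolamine, and 1.48% (1.41 to 1.56) and 0.324% in control. Of the 80 at a mean of at least 20 CPM, all 80 were at least 2-fold above the median gene in each library, beside 10.3%, 10.1% and 16.6% of all genes. Rplp1, of the large subunit stalk, had 805 and 398 CPM in tamsulosin, 396 and 195 CPM in scopolamine, and 692 and 109 CPM in control. With all UMIs as the denominator the list was still higher, at 1.19 times the other barcodes in tamsulosin, 1.09 times in scopolamine and 2.94 times in control. These values pool the bands, and values over all UMIs are not given by band. Of remaining UMIs the list held 1.34% in the upper and 2.43% in the lower band of tamsulosin, and 1.002% and 0.945% in scopolamine.

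A list of 20 abundant cytoplasmic messages was 1.87 (log2) above the median gene in tamsulosin, 2.01 in scopolamine and 2.55 in control, and all 17 measured members were at least 2-fold above it in tamsulosin and in scopolamine. Over all genes 10.3% and 10.1% were that far above it, to be read beside these counts and those of the next lists. Nuclear-encoded subunits of the respiratory chain were at 1.72, 2.0 and 2.32, with 26 of 28 measured members 2-fold above the median gene in tamsulosin and 15 of 18 in scopolamine. ER folding and translocation genes were at 1.76, 2.27 and 1.89, with 24 of 24 and 23 of 23. Hspa5, the main ER chaperone, had 571 and 351 CPM in tamsulosin, 632 and 317 CPM in scopolamine, and 1033 and 245 CPM in control. P4hb, a protein disulfide isomerase, had 507 and 263 CPM in tamsulosin, 533 and 240 CPM in scopolamine, and 578 and 265 CPM in control. Measured against all UMIs, these 3 lists were lower in secretory-dominated barcodes in tamsulosin (0.942, 0.848 and 0.874 times the others) and in scopolamine (0.619, 0.617 and 0.741 times), so their direction depends on the denominator.

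**Figure D3:**
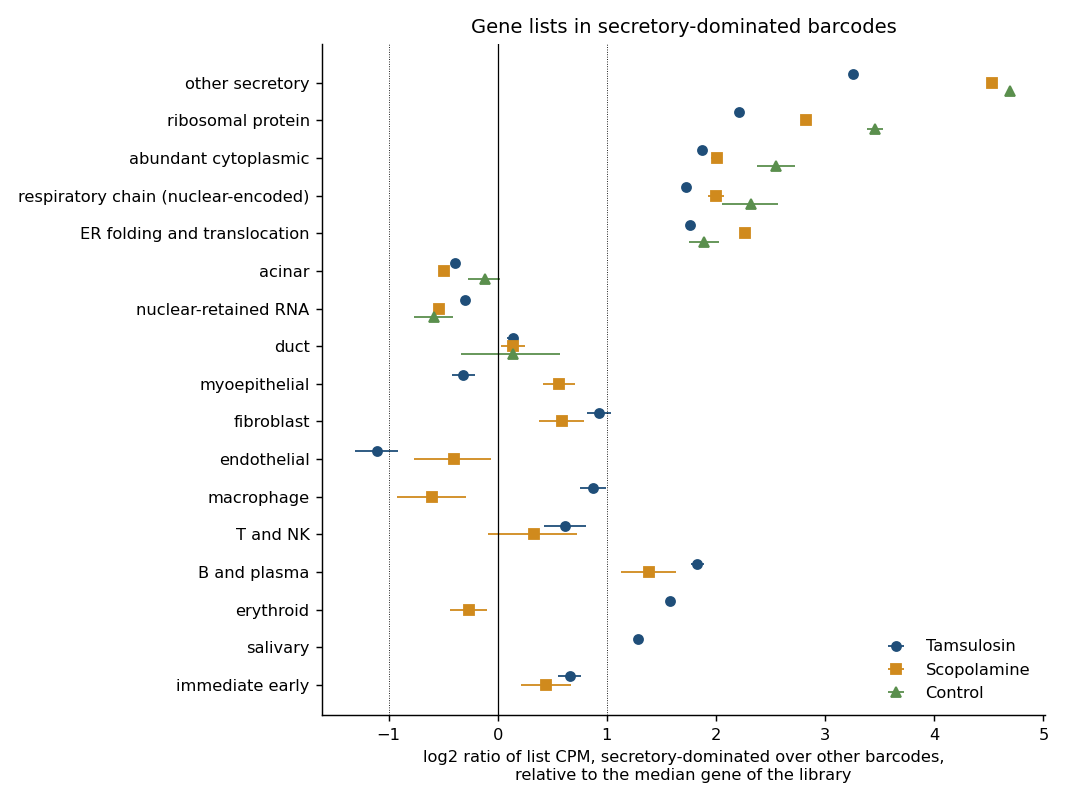
Points are the log2 ratio of each list's CPM in secretory-dominated over other barcodes, minus that of the median gene of the library (x axis), for the tamsulosin, scopolamine and control libraries from top to bottom within each list (y axis), with 95% counting intervals. Lists with fewer than 30 UMIs in the secretory-dominated barcodes of a library are not drawn. The 4 lists of ribosomal, cytoplasmic, respiratory and ER messages lie between 1.72 and 3.46, and the acinar and nuclear-retained lists at or below 0.

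RNAs that stay in the nucleus took a smaller share. A list of 12 nuclear-retained RNAs other than Malat1 held 0.239% (0.235 to 0.242) of remaining UMIs in secretory-dominated and 0.747% in other barcodes of tamsulosin, 0.175% (0.170 to 0.181) and 0.944% in scopolamine, and 0.273% (0.241 to 0.308) and 0.982% in control. All 9 members at a mean of at least 20 CPM were at least 2-fold lower in tamsulosin and in scopolamine, beside 75.4% and 88.8% of all genes. Neat1, the RNA that scaffolds nuclear paraspeckles, had 987 and 2692 CPM in tamsulosin, 741 and 3983 CPM in scopolamine, and 1188 and 4612 CPM in control. Relative to the median gene the list was at -0.30 (log2) in tamsulosin, -0.54 in scopolamine and -0.58 in control, past 2-fold in none of them. The control value turned to 0.24 when barcodes were thinned to 500 remaining UMIs.

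The ratio between the UMIs of these lists does not depend on the denominator. Secretory-dominated barcodes had 7.60 UMIs of ribosomal protein genes per UMI of the nuclear-retained RNAs (7.47 to 7.74) in tamsulosin, against 1.33 in the other barcodes. The ratio was 5.70 (5.51 to 5.90) and 0.554 in scopolamine, and 5.44 (4.76 to 6.22) and 0.330 in control. It was 12.4 in the upper and 5.94 in the lower band of tamsulosin, and 6.82 and 2.01 in scopolamine. Barcodes past the 30% secretory limit but with 1.5% Malat1 or more, of which there were 714 in tamsulosin and 78 in scopolamine, had 3.97 and 1.62. Barcodes of low Malat1 under the secretory limit had 2.75 in tamsulosin (1073 barcodes), 1.77 in scopolamine (119) and 1.91 in control (92). The secretory-dominated barcodes were chosen for low Malat1. How far that choice set the level of the other nuclear-retained RNAs, and so this ratio, was not tested.

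Gene span separated the groups outside the most abundant transcripts. Without the 50 most abundant genes, genes spanning over 100 kb took 27.0% of UMIs in secretory-dominated and 38.1% in other barcodes of tamsulosin, 28.5% and 39.7% in scopolamine, and 31.8% and 39.2% in control. Genes under 10 kb took 21.98% and 9.08% in tamsulosin, 20.8% and 7.28% in scopolamine, and 18.4% and 6.37% in control. Long genes thus supplied at least 27.0% of these UMIs in the secretory-dominated barcodes of each library. In the upper band of tamsulosin the shares were 22.2% for long and 28.0% for short genes, and in the lower band 29.5% and 18.9%. Annotated long noncoding RNAs took 3.33% and 4.18% in tamsulosin, 2.83% and 3.82% in scopolamine, and 2.65% and 2.87% in control.

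**Figure D4:**
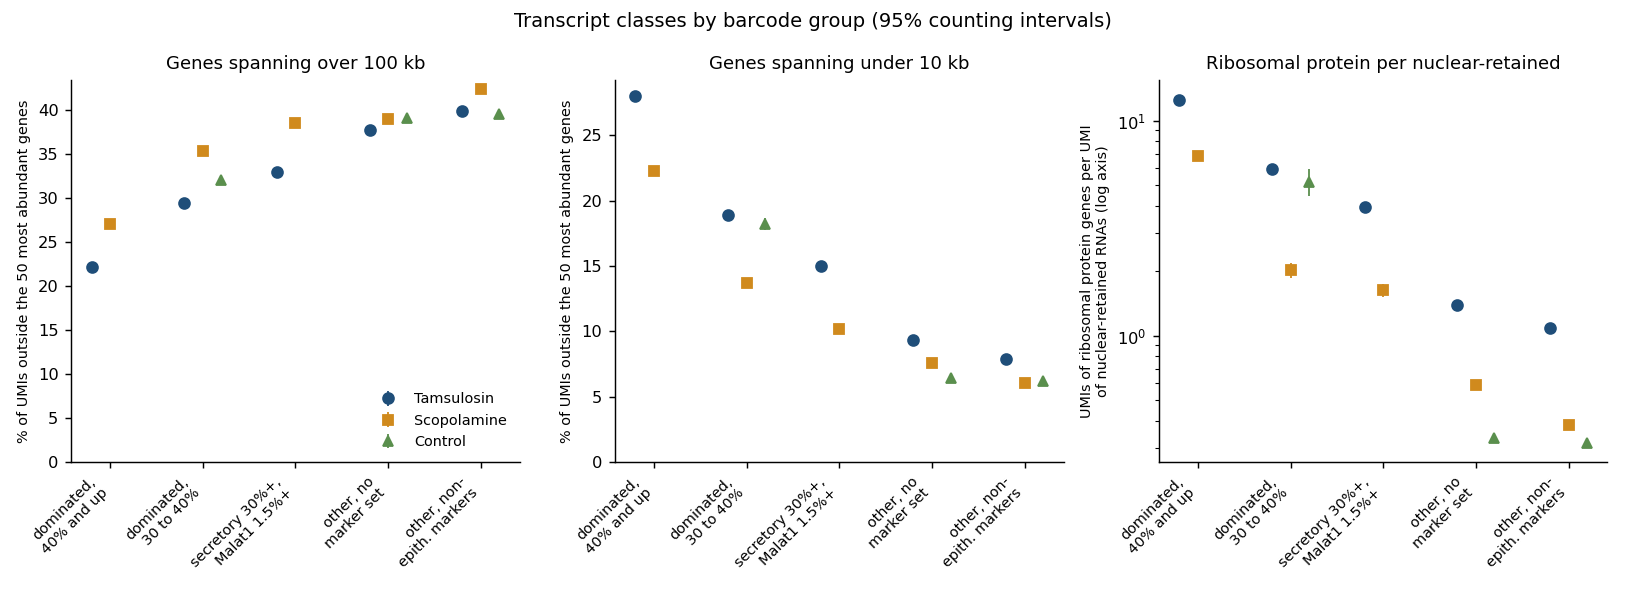
Panels give the share of UMIs outside the 50 most abundant genes that lies in genes spanning over 100 kb (left, %) and under 10 kb (middle, %), and UMIs of ribosomal protein genes per UMI of nuclear-retained RNAs (right, log axis), with 95% counting intervals, for 5 groups of barcodes (x axis) and 3 libraries (symbols). Groups with fewer than 20 barcodes are not drawn. In tamsulosin the long-gene share was 22.2% in the upper band of secretory-dominated barcodes, 37.8% in other barcodes with fewer than 3 non-epithelial markers and 39.9% in those with 3 or more.

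The lowest of the named genes spanned more of the genome than the highest. They were Chst9, Shank2, Trpm6, Arl15, Eya2, Tfcp2l1, Samd12, Sybu, Aox3, Glis3, Fut9 and Barx2, and their spans ran from 57224 to 448728 bases. Tfcp2l1, Aox3 and Barx2 were under the 100 kb used for long genes. The share of all genes with spans in this range is not given here. Chst9, a sulfotransferase acting on glycan chains, had 69.9 CPM in secretory-dominated and 847 CPM in other barcodes of tamsulosin (12.1-fold lower, 11.004 to 13.4) and 50.3 and 415 CPM in scopolamine (8.25-fold lower, 6.84 to 10.0). Shank2, a scaffold protein, had 103 and 749 CPM in tamsulosin and 58.0 and 470 CPM in scopolamine. Glis3, a zinc finger transcription factor, had 135 and 1173 CPM in tamsulosin and 75.2 and 455 CPM in scopolamine. Relative to the median gene all 12 lay between -2.16 and -1.14 in tamsulosin and between -1.03 and -0.62 in scopolamine. Their choice fixed their direction in these 2 libraries. In control each had a lower share too, from 1 to 18 UMIs in the secretory-dominated barcodes. The intervals of Samd12, Sybu and Barx2 reached a ratio of 1 there. Relative to the median gene the control values ran from -1.65 (Tfcp2l1) to 0.27 (Eya2).

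Transcripts that mark acinar cells were present at a lower share. All 17 acinar markers had UMIs in the secretory-dominated barcodes of tamsulosin and scopolamine and 15 in the 24 barcodes of control. Together they held 0.299% (0.294 to 0.303) of remaining UMIs in secretory-dominated and 1.00% in other barcodes of tamsulosin, 0.199% (0.193 to 0.205) and 1.04% in scopolamine, and 0.394% (0.356 to 0.436) and 1.03% in control. Chrm3, the muscarinic receptor of acinar cells, had 943 and 3685 CPM in tamsulosin, 700 and 4313 CPM in scopolamine, and 1528 and 4049 CPM in control. Kcnma1, a potassium channel gene, had 829 and 3214 CPM in tamsulosin, 614 and 3688 CPM in scopolamine, and 1415 and 3810 CPM in control. At least 2-fold lower were 11 of the 17 markers in tamsulosin and 13 in scopolamine, beside 75.4% and 88.8% of all genes. The median marker was at -0.017 (log2) relative to the median gene in tamsulosin and -0.010 in scopolamine. In both libraries 3 markers were at least 2-fold above the median gene and 0 below. Summed over its markers, the list was at -0.40 (log2) relative to the median gene in tamsulosin, -0.49 in scopolamine and -0.12 in control. Without the 50 most abundant genes the sign turned to 0.07 in tamsulosin and 0.24 in scopolamine, and in control it turned to 0.67 after thinning to 500 remaining UMIs, so the list stayed within 2-fold of the median gene in these settings.

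Summed over the list, duct markers stood near the median gene, at 0.14 (log2) in each library, with 13 of 13 detected in tamsulosin and scopolamine and 6 of 13 in control. The median measured duct marker was higher, at 0.71 in tamsulosin, 0.66 in scopolamine and 0.30 in control. The sign of the sum turned in 1 of 13 alternatives in tamsulosin and in 1 in scopolamine. Myoepithelial markers were at 0.0130% and 0.0413% of remaining UMIs in tamsulosin and 0.0169% and 0.0426% in scopolamine, with 9 of 10 detected and Oxtr at 0 in both, and at 2 UMIs in control. Fibroblast markers were at 0.0128% and 0.0171% of remaining UMIs in tamsulosin, 0.00888% and 0.0220% in scopolamine, with 10 of 10 detected in both. Endothelial markers were at 0.00367% and 0.0201% in tamsulosin with 10 of 10 detected, and at 0.00312% and 0.0154% in scopolamine with Kdr and Cdh5 at 0. Macrophage markers were at 0.0108% and 0.0151% in tamsulosin with 10 of 10 detected, and at 0.00389% and 0.0219% in scopolamine with Csf1r at 0. Markers of T and NK cells were at 0.00395% and 0.00655% in tamsulosin with 10 of 10 detected and at 0.00240% and 0.0071% in scopolamine with Cd3d at 0. Against the median gene the order of the groups changed for some of these lists and not for others. Fibroblast markers were then at 0.92 (log2) in tamsulosin and 0.59 in scopolamine, T and NK markers at 0.62 and 0.33, and endothelial markers at -1.11 and -0.40. Macrophage markers were at 0.87 and -0.60, and myoepithelial markers at -0.32 and 0.56. Over 13 alternatives the T and NK sign turned in 1 for tamsulosin and in 3 for scopolamine. In scopolamine the fibroblast sign turned in 1 and the endothelial sign in 2. In control no marker of T or NK cells had a UMI, and 3, 1 and 3 of the 10 markers of fibroblasts, endothelium and macrophages did.

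Markers of B and plasma cells were at 0.0491% of remaining UMIs in secretory-dominated and 0.0352% in other barcodes of tamsulosin, and at 0.00616% and 0.00877% in scopolamine with Pax5, Cd79a, Cd79b, Mzb1 and Ms4a1 at 0. Relative to the median gene they were at 1.83 (log2) in tamsulosin, 1.39 in scopolamine and 2.07 in control, where 17 UMIs were counted. Igkc, an immunoglobulin light chain, had 195 and 116 CPM in tamsulosin and 19.9 and 23.2 CPM in scopolamine. Erythroid transcripts were at 0.141% and 0.120% in tamsulosin, 0.0130% and 0.0583% in scopolamine, and 2 UMIs in control. Jchain, which joins immunoglobulin A chains, had 81.5 and 51.5 CPM in tamsulosin and 11.8 and 13.7 CPM in scopolamine. These values pool the bands. In tamsulosin B and plasma markers held 0.0234% in the upper and 0.0826% in the lower band, and erythroid transcripts 0.0500% and 0.259%. For both lists the upper band there was below the other barcodes and the lower band above them. In scopolamine the shares were 0.00407% and 0.0281% for B and plasma markers, and 0.0139% and 0.00364% for erythroid transcripts. The part of these cell types in the other results was not tested.

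Barcodes that carried several markers of 1 non-epithelial class were rarer among the secretory-dominated when the classes were pooled. At least 3 markers of fibroblasts, endothelium, macrophages, T and NK cells or B and plasma cells, with more of that class than of any other, were found in 144 secretory-dominated barcodes (5.63%, 4.77 to 6.59) and 11.1% of the others in tamsulosin. They were found in 19 (3.45%, 2.09 to 5.34) and 8.43% in scopolamine, and in 1 of 24 and 6.82% in control. The B and plasma class alone made 2.66% (2.07 to 3.36) of secretory-dominated and 2.97% of other barcodes in tamsulosin, and 0.727% (0.199 to 1.85, 4 barcodes) and 0.434% in scopolamine, so it was not distinguishable between the groups within counting error. The 1 barcode of control was of this class. The groups differ in depth, and these shares were not adjusted for it. Scrublet called 1 barcode of tamsulosin and none of the other libraries a doublet, under 0.5% of each library, and none was removed. Among the highest Scrublet scores were 6.60% of secretory-dominated and 10.4% of other barcodes in tamsulosin, and 5.64% and 8.14% in scopolamine.

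The mix of secretory transcripts was set against that in the other barcodes of non-epithelial marker profile. Among these classes plasma cells make the immunoglobulin A of tears, which is not among the secretory genes compared. These numbered 1050 in tamsulosin, 797 in scopolamine and 489 in control, with median depths of 3195.5, 2587 and 3146 UMIs. Their median secretory share was 17.6% in tamsulosin, 10.9% in scopolamine and 3.42% in control, while their median Malat1 share was 2.49%, 3.20% and 3.41%. Over 31 secretory genes the mix of the secretory-dominated barcodes differed from theirs by 3.81% of the UMIs in tamsulosin, 4.24% in scopolamine and 15.2% in control. From other barcodes with fewer than 3 such markers it differed by 5.12%, 4.31% and 14.4%, and those barcodes and the non-epithelial ones differed from each other by 1.74%, 0.858% and 3.07%. The 31 genes include the 3 that chose the barcodes, so these distances are in part set by the rule. Over the 28 others, compared after the data were seen, the mix of the secretory-dominated barcodes differed from that of the non-epithelial barcodes by 6.58% in tamsulosin, 7.85% in scopolamine and 22.2% in control. It differed from other barcodes with fewer than 3 such markers by 8.39%, 7.16% and 21.2%, and those barcodes and the non-epithelial ones differed from each other by 2.54%, 1.43% and 3.61%.

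Of the rule genes, whose values describe the choice, Mucl2 made 35.0% of secretory UMIs in the secretory-dominated and 31.8% in the non-epithelial barcodes of tamsulosin, 35.4% and 31.6% in scopolamine, and 41.1% and 29.7% in control. Scgb2b2 differed little, with 16.6% and 16.6% in tamsulosin, 16.8% and 17.0% in scopolamine, and 15.1% and 14.5% in control. Within the mix Esp6 was lower, with 0.734% and 1.22% in tamsulosin, 0.619% and 1.39% in scopolamine, and 1.35% and 3.14% in control. Ltf was lower too, with 0.290% and 1.07% in tamsulosin, 0.0229% and 0.280% in scopolamine, and 0.00651% (6 UMIs) and 0.170% in control. Scgb1b2 was close in tamsulosin (14.9% in both) and scopolamine (14.3% and 13.9%) and lower in control (7.58% and 10.2%).

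**Figure D5:**
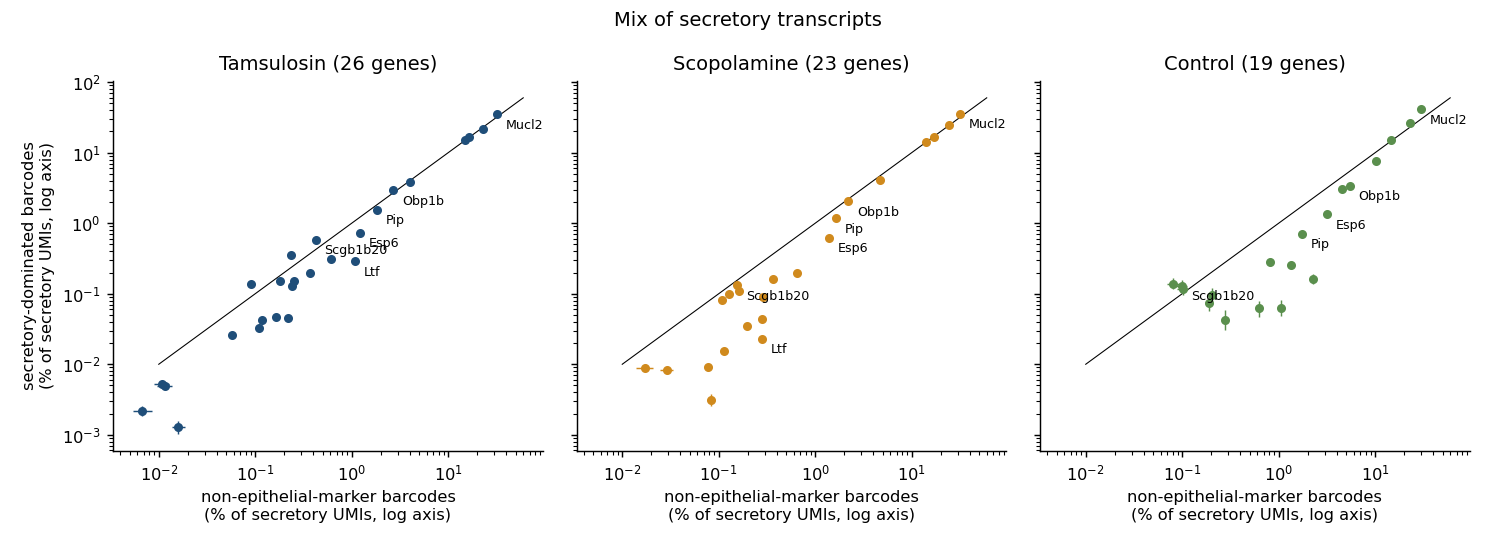
Each point is 1 secretory gene, placed by its share of all secretory UMIs in barcodes of non-epithelial marker profile (x axis, %, log axis) and in secretory-dominated barcodes (y axis, %, log axis), in the tamsulosin, scopolamine and control libraries from left to right, with 95% counting intervals and the line of equality. Genes with at least 30 UMIs in both groups are drawn, 26, 23 and 19 of 31. The abundant genes lie near the line in tamsulosin (Mucl2 35.0% against 31.8%) and scopolamine. In control some lie further from it (Mucl2 41.1% against 29.7%, Obp1b 3.42% against 5.44%). In panel order 19, 21 and 13 genes lie below the line.

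Outside the 50 most abundant genes the expression profile was most like that of other secretory-rich barcodes. Pearson's r over 5333 genes (log2 CPM, sums per group within the tamsulosin library) was 0.93 with the 714 barcodes past the secretory limit that had more Malat1. It was 0.82 with other barcodes that carried fewer than 3 non-epithelial markers, 0.80 with B and plasma, 0.74 with fibroblast, 0.74 with T and NK, 0.72 with macrophage and 0.71 with endothelial barcodes. In scopolamine (4996 genes) r was 0.81 with the 78 barcodes of more Malat1, 0.78 with other barcodes of few non-epithelial markers and 0.66 to 0.69 with the non-epithelial classes. The sums compared come from 1 library each and differ in depth, and the correlations are a description across genes, which are not independent replicates. In control, with 24 secretory-dominated barcodes, r was 0.60 with the other barcodes of few non-epithelial markers and 0.53 to 0.59 with the non-epithelial classes.

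Tamsulosin and scopolamine barcodes were compared within the secretory-dominated group, 1 library against 1, with no test. Of 3181 genes with a mean of 20 CPM or more, 172 (5.41%) were higher by 2-fold or more in tamsulosin and 1 (0.0314%) lower. Over the same genes in the other barcodes 128 (4.02%) were higher and 8 (0.251%) lower. The median gene was at 0.43 (log2) in the secretory-dominated and at -0.10 in the other barcodes. The other secretory proteins held 43.0% of remaining UMIs in tamsulosin and 52.7% in scopolamine in this group, but 11.4% and 8.50% in the other barcodes. The makeup by band differed too, as 33.9% of the tamsulosin and 90.9% of the scopolamine barcodes were in the upper band.

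The genes with the highest ratios between these libraries were Bpifa2, Smr3a, Amy1, Cyp2f2 and Scgb2b7, and they were higher in the other barcodes of tamsulosin as well. Bpifa2, a salivary lipid-binding protein, had 1163 CPM in tamsulosin (6975 UMIs) and no UMI in scopolamine, at least 856-fold higher against a floor of 3 counts over the group. Smr3a, an androgen-regulated secreted protein of the submaxillary gland, had 652 CPM and no UMI, at least 479.8-fold higher. Amy1, salivary amylase, had 574 and 5.89 CPM, Cyp2f2, a cytochrome P450, 1576 and 102 CPM, and Scgb2b7 1752 and 140 CPM. In the other barcodes Bpifa2 had 1278 CPM in tamsulosin and no UMI in scopolamine, and Amy1 had 625 and 27.1 CPM. The 9 salivary markers together held 0.187% of remaining UMIs in secretory-dominated and 0.196% in other barcodes of tamsulosin, and 13 UMIs in the secretory-dominated barcodes of scopolamine. The first value pools the bands of tamsulosin, with 0.0693% in the upper and 0.342% in the lower band. Obp1a had 281735 and 386713 CPM, 1.37-fold lower in tamsulosin, whereas in the other barcodes it had 70291 and 56782 CPM, 1.24-fold higher. Ltf had 3723 and 360 CPM, and 5132 and 578 CPM in the other barcodes.

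Lower ratios were nearer to 1. Adamtsl1, an extracellular matrix protein gene, had 70.2 CPM in tamsulosin and 163 CPM in scopolamine (2.32-fold lower, 2.01 to 2.67), and 149 and 293 CPM in the other barcodes. Hp had 592 and 1012 CPM (1.71-fold lower, 1.62 to 1.80), Ntrk3 74.5 and 126 CPM, and Cd63 116 and 180 CPM. In the other barcodes Hp and Ntrk3 were lower in tamsulosin too, and Cd63 was higher, at 60.9 and 49.0 CPM. Ribosomal protein genes held 1.81% in tamsulosin and 0.997% in scopolamine among the secretory-dominated, a ratio of 1.82 (1.79 to 1.85), and 0.997% and 0.523% among the others, a ratio of 1.91. Secretory-dominated barcodes of control were under the 50 needed for a comparison, so scopolamine was not set against control. Whether the secretory-dominated barcodes hold nuclei, cytoplasm or free RNA was not tested.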

How the data were processed

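Lacrimal gland nuclei of mice were used, 1 library for each of 3 groups. The values are UMI counts as the authors deposited them, for 32285 genes, with lists of genes and barcodes. Cell Ranger 5.0.0 and mm10 are named in the submitters' processing notes. The gene annotation, whether introns were counted and how barcodes were called are not given in the sources used here.

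Members and gene lists were chosen with earlier results of these data known. UMIs were summed over each group of barcodes within a library. The denominator was the remaining UMIs, and log2 ratios had a pseudocount of 5 CPM and a minimum mean of 20 CPM. Intervals are 95%: Clopper-Pearson for shares of barcodes, Poisson for list shares and conditional binomial for ratios. They cover counting error only, and no p-value was computed. Ratios and their intervals were tested on simulated data. Gene spans came from GENCODE vM21 (32235 genes matched), and 1 listed symbol was not matched. No clustering was done. Doublets were scored with Scrublet (expected rate 0.06), and none was removed.

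Named genes were the 12 highest and 12 lowest ratios of the same sign in both libraries with at least 50 members, at a mean of 50 CPM or more and 30 UMIs or more in the higher group, without mt-, haemoglobin, unnamed or rule genes. Between libraries they were the 5 highest and 5 lowest at a mean of 100 CPM or more, and from each list the members with the highest CPM. Of the genes so named, 1 is not reported here. Dmbt1, Ltf, Esp6, Gm5938 and Gm1553 were chosen after values were seen. Alternatives moved the secretory, Malat1 and UMI and gene limits of the rule (the mt- limit was kept), the denominator, the pseudocount, the CPM minimum, the thinning depth, the span limits, the barcodes compared and the doublet scores. Tools were scanpy 1.11.5, numpy 2.4.6, pandas 2.3.3, scipy 1.17.1, matplotlib 3.10.9 and Python 3.11.15.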

Additional observations from a re-analysis of the deposited data

Results flagged for a closer look

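Of the marker lists, 3 had log2 ratios relative to the median gene that lay on opposite sides of 0 in different libraries, with counting intervals that did not reach 0. The differences were not tested, since each group is 1 library. Myoepithelial markers were at -0.32 in tamsulosin, 0.56 in scopolamine and -2.26 in control, the last from 2 UMIs. Macrophage markers were at 0.87 in tamsulosin and -0.60 in scopolamine. Erythroid transcripts were at 1.58 in tamsulosin, -0.26 in scopolamine and -2.43 in control, the last from 2 UMIs. The tamsulosin value pools the bands, where erythroid transcripts held 0.0500% of remaining UMIs in the upper and 0.259% in the lower. The scopolamine signs depended on the processing. Over 13 alternatives erythroid transcripts there turned sign in 4 (up to 1.95), myoepithelial markers in 2 (down to -1.97) and macrophage markers in 2 (up to 0.39), whereas the tamsulosin signs turned in 0. In each of the 3 lists 1 of the turns came from the comparison with secretory-rich barcodes of more Malat1.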

How the results depend on the processing

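The share of secretory-dominated barcodes moved with the rule. In tamsulosin it was 28.0% and 7.22% at secretory limits of 20% and 40%, 12.3% and 25.02% at Malat1 limits of 1% and 2%, and 14.4% at 1000 UMIs and 500 genes. In scopolamine it was 6.13% and 5.00% at those secretory limits, 4.94% at a Malat1 limit of 1% and 4.66% at 1000 UMIs and 500 genes, and in control 0.695% and 0.0556% at the secretory limits. Genes higher by 2-fold numbered 13 with all UMIs as the denominator, 9 against secretory-rich barcodes with more Malat1 and 661 without the 50 most abundant genes in tamsulosin, and 17, 16 and 665 in scopolamine, with 44 at a pseudocount of 20 CPM. Genes lower by 2-fold numbered 1237 against those secretory-rich barcodes, 195 without the 50 most abundant genes, 2682 at a pseudocount of 20 CPM and 2279 at a 50 CPM minimum in tamsulosin. In scopolamine they numbered 285 without the most abundant genes, 2331 at 50 CPM and 7772 with no minimum. The ratio of genes detected was 0.311 at 1000 remaining UMIs in scopolamine (0.329 at 500), and 0.971, 0.964 and 0.957 in tamsulosin, scopolamine and control outside the 50 most abundant genes. The long-gene ratio was 0.752 over 50 kb in tamsulosin (0.710 over 100 kb), and the short-gene ratios under 5 kb were 3.08, 4.04 and 4.69. Between tamsulosin and scopolamine 85 genes were higher at a pseudocount of 20 CPM, and 2 were lower at 1 CPM. In control, endothelial markers turned to 0.71 at a secretory limit of 20%, and myoepithelial markers to 0.35 at a Malat1 limit of 2% and 0.0027 after thinning. The cause was not tested. Of 52 gene results 1 changed sign (Samd12 in scopolamine), and of 50 list results 19 did in at least 1 setting. The gene results cover tamsulosin and scopolamine, the libraries that chose the 12 highest and 12 lowest genes. Fth1 and Tpt1 were named as markers from these data. The signs of the gene results were therefore largely set by the choice. No paired analysis was possible because each group has 1 library, and for the same reason no replicate could be left out. The 24 control barcodes limit the depth of every control value.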
